A study of Mus musculus with 16 samples.

Results

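Follicular cells of the thyroid oxidise iodide with hydrogen peroxide, and the 39 genes described here encode enzymes and other proteins that make, remove or answer to such oxidants. They are the superoxide dismutases *Sod1*, *Sod2* and *Sod3* with catalase (*Cat*), the glutathione peroxidases *Gpx1*, *Gpx2*, *Gpx3*, *Gpx4*, *Gpx7* and *Gpx8*, the peroxiredoxins *Prdx1* to *Prdx6* with sulfiredoxin (*Srxn1*), the thioredoxins *Txn1* and *Txn2* with the reductases *Txnrd1*, *Txnrd2* and *Txnrd3*, and the enzymes of glutathione synthesis and reduction *Gclc*, *Gclm*, *Gss* and *Gsr*. The others are the glutathione S-transferases *Gsta4*, *Gstm1* and *Gsto1*, the transcription factor gene *Nfe2l2* with *Keap1*, *Nqo1* and *Hmox1*, the metallothioneins *Mt1* and *Mt2*, and the NADPH oxidase genes *Cybb*, *Cyba*, *Ncf1* and *Nox4*. They were chosen by the function of their products among 24623 distinct gene symbols, which fill 25611 entries of a table of read counts per gene. All 39 passed the filter on low counts that left 16630 genes to be tested, and the lowest count of any member in any mouse was 90, for *Nqo1*.

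RNA was sequenced from thyroid glands of 16 mice aged 1 month, whose strain is labelled C57BL/6, with 4 mice in each of 4 groups. WT mice and *Glis3*-Pax8Cre mice, which carry the conditional *Glis3* allele tm2Amj (B6;129) and the *Pax8* allele tm1.1(cre)Mbu by their labels, received the normal diet NIH-31 (ND) or the low iodine diet TD.95125 (LID) for several days, and each library came from a different animal. In *Glis3*-Pax8Cre mice, Cre made where *Pax8* is active deletes an exon of *Glis3*, the gene of a transcription factor, in follicular cells, and whether the WT mice carried Cre is not stated. The comparisons ask what loss of GLIS3 changes on each diet, what a low supply of iodine changes in each genotype, and whether that response depends on GLIS3.

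Between 13892352 (replicate 1 of *Glis3*-Pax8Cre(ND)) and 461077969 (replicate 4 of WT(ND)) read pairs per mouse fell on genes, and each value is in CPM, a count scaled by the size of its library after correction by the TMM factor, with group values as mean ± SD of 4 mice. Counts over the whole of *Glis3* were 79.2, 85.8, 81.8 and 45.2 CPM in the WT mice on ND (replicates 1 to 4), 125, 174, 165 and 161 CPM under LID, and 105, 93.0, 101 and 85.8 CPM in the *Glis3*-Pax8Cre mice on ND and 150.3, 119.5, 204 and 185 CPM under LID. They were not lower in the *Glis3*-Pax8Cre mice: on ND these lay above all WT mice, the closest at 85.83 against 85.77 CPM. Under LID the genotypes overlapped. As these counts cover the whole gene, they do not measure the deleted exon. A pair of libraries stood farthest apart from the others of their groups. Replicate 3 of WT(ND) lay towards the *Glis3*-Pax8Cre mice on 735 genes that differ between genotypes under LID. Its median log2 distance from the WT(ND) mean over these genes, signed in that direction, was 0.249, where the other WT(ND) mice lay between -0.123 and -0.0391 and the *Glis3*-Pax8Cre(ND) mice between 0.448 and 0.550. Its *Nqo1* value was 9.31 CPM, against 17.8 to 21.2 CPM in the others. Its *Pax8* value was 996 CPM, against 374 to 397 CPM in the other WT(ND) mice and 643 to 989 CPM in the *Glis3*-Pax8Cre(ND) mice. This mouse is part of every WT(ND) mean given here. Replicate 4 of *Glis3*-Pax8Cre(ND) had 2333 CPM summed over 8 thymocyte markers against 11.4 to 13.8 CPM in the others of its group. It was the lowest of its group for 28 of the 39 members. The same markers also summed to 307 CPM in replicate 4 of *Glis3*-Pax8Cre(LID) (8.07 to 8.59 CPM in the others of its group), 207 CPM in replicate 3 of WT(LID) (4.56 to 4.86 CPM) and 143 CPM in replicate 1 of WT(ND) (8.86 to 32.6 CPM).

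Hydrogen peroxide is made at the apical membrane of follicular cells, where it serves the iodination of thyroglobulin. Superoxide dismutases turn superoxide into hydrogen peroxide, which catalase, glutathione peroxidases and peroxiredoxins remove, and glutathione reductase and the thioredoxin reductases restore the electron carriers from NADPH. The transcription factor NRF2, the product of *Nfe2l2*, is held back by KEAP1 and acts on many of these genes through the antioxidant response element, while metallothionein genes answer to zinc, copper and stress.

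Levels of the members were compared with each other only as CPM per kb of exon. On that scale, *Mt2* (639 CPM per kb), *Sod1* (541), *Mt1* (379), *Gpx4* (258) and *Txn1* (246) had the highest group means in WT(ND). The exon length used was 1246 bases for *Mt1*, which is about that of its whole gene entry, and 588 bases for *Mt2*. The place of *Mt1* below *Mt2* and *Sod1* rests on that length. The lowest mean CPM per kb in WT(ND) was that of *Nox4* at 1.73, before *Ncf1* at 2.60 and *Txnrd2* at 3.96. *Sod3* went from 42.3 CPM per kb in WT(ND) to 508 in WT(LID), but stood at 76.4 in *Glis3*-Pax8Cre(LID). In *Glis3*-Pax8Cre(LID) the metallothioneins led, with 1693 CPM per kb for *Mt2* and 1083 for *Mt1*.

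**Figure D1:**
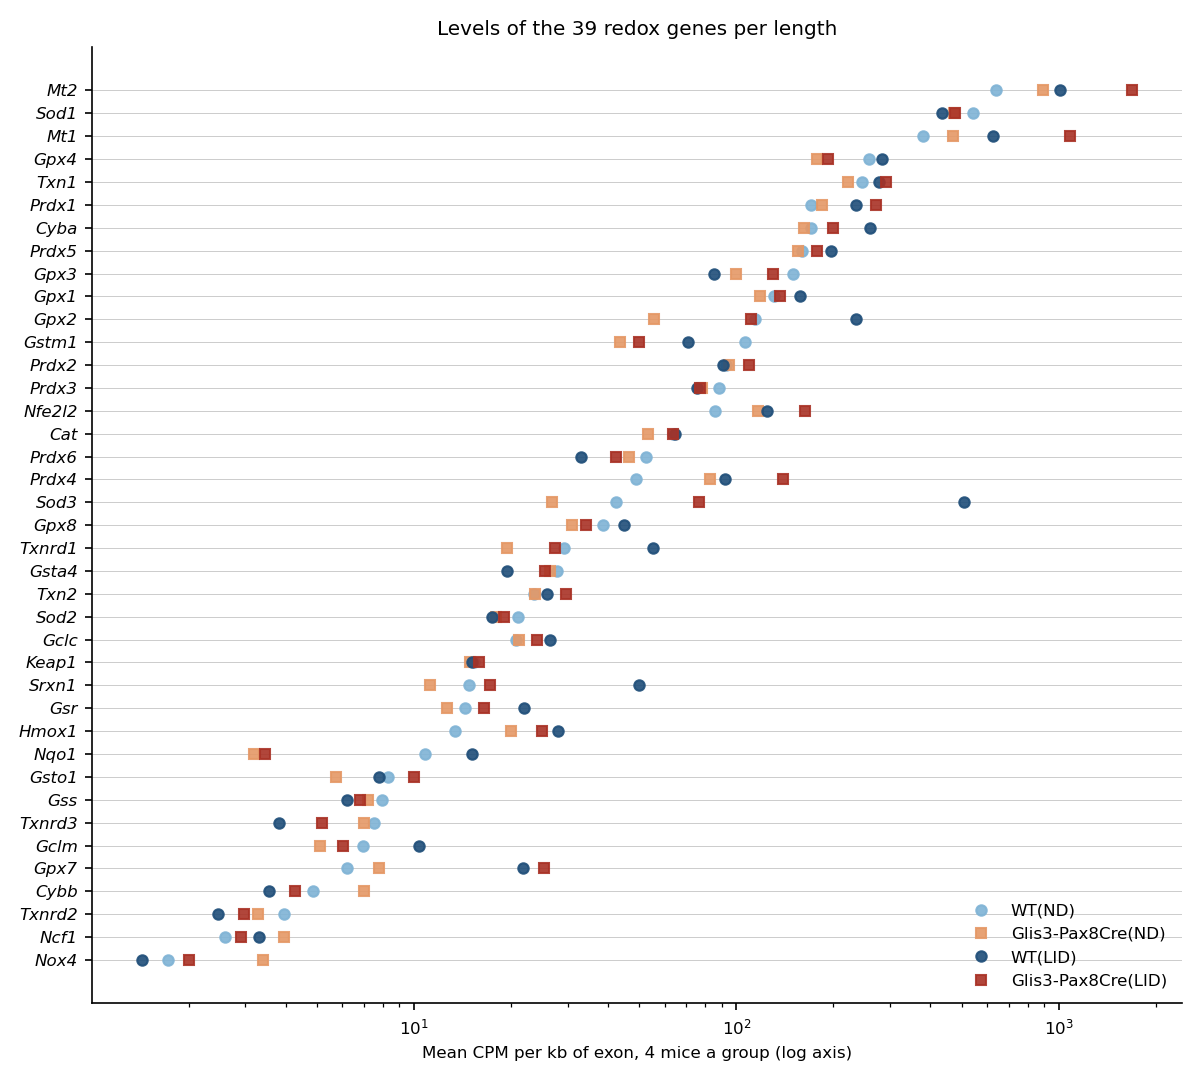
Mean CPM per kb of exon (horizontal log axis) of the 39 genes (vertical axis, ordered by the WT(ND) mean) in the 4 groups of 4 mice. *Sod3* stands at 508 in WT(LID) against 42.3 in WT(ND), and *Mt2* is the highest gene in all 4 groups, with 1693 in *Glis3*-Pax8Cre(LID). The order of *Mt1* against *Mt2* and *Sod1* rests on the exon length used for *Mt1*.

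Under LID, the absence of GLIS3 went with changes in 20 of the 39 members. By edgeR's quasi-likelihood F-test with Benjamini-Hochberg adjustment, 9 members were called higher and 11 lower in *Glis3*-Pax8Cre(LID) than in the WT(LID) mice, where 14.9% of the 16630 tested genes were called higher and 15.4% lower. The median log2 fold change of the members was 0.07, beside 0.01 over all genes. The 5 members that differed by over 2-fold were all lower: *Sod3*, *Nqo1*, *Srxn1*, *Gpx2* and *Txnrd1*. *Gclm*, *Gpx4*, *Gstm1*, *Gsr*, *Gpx8* and *Cyba* were lower with log2 fold changes from -0.78 to -0.38. The higher members were *Mt1*, *Mt2*, *Gpx3*, *Prdx4*, *Txnrd3*, *Gsta4*, *Nfe2l2*, *Prdx6* and *Prdx2*, from 0.79 down to 0.28. The count of higher members was 5 without replicate 2 of *Glis3*-Pax8Cre(LID), replicate 2 of WT(LID) or replicate 3 of WT(LID), each of which ended the calls of *Gpx3*, *Prdx2*, *Prdx6* and *Gsta4*. In whole glands, fewer cells of a type and less RNA per cell cannot be told apart, and each p measures the spread between separate animals. Called and not called refer to this test in all 16 mice unless another fit is named.

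On the normal diet fewer members, and fewer of all tested genes, differed between genotypes. The same test called 7 members higher in *Glis3*-Pax8Cre(ND) than in the WT(ND) mice and 7 lower, beside 10.3% and 9.25% of the tested genes, and the median of the members was -0.15 against 0.02 over all genes. The lower members were *Nqo1*, *Gstm1*, *Gpx2*, *Sod3*, *Txnrd1*, *Gpx4* and *Gclm*, and these 7 were also the members lower on both diets. The higher members were *Nox4*, *Prdx4*, *Ncf1*, *Hmox1*, *Cybb*, *Mt2* and *Nfe2l2*, of which *Prdx4*, *Mt2* and *Nfe2l2* were higher under LID too. *Nqo1*, *Gstm1* and *Gpx2* were the 3 members that differed by over 2-fold. Without replicate 1 of *Glis3*-Pax8Cre(ND), 11 members were called lower, with *Gpx3*, *Gpx8*, *Gsr* and *Sod2* added. In a fit of only the 8 ND mice 4 were called lower, without *Sod3*, *Gpx2* and *Gpx4*.

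In WT glands LID changed more members, and more of all tested genes, than the loss of GLIS3 did on either diet. In WT(LID) against WT(ND), the same test called 15 members higher (38.5%) and 8 lower (20.5%), beside 20.9% and 20.8% of the tested genes. The median was 0.22 for the members and -0.03 over all genes. *Sod3*, *Gpx7*, *Srxn1*, *Hmox1* and *Gpx2* rose by over 2-fold, and *Prdx4*, *Txnrd1*, *Mt1*, *Mt2*, *Gsr*, *Cyba*, *Gclm*, *Nfe2l2*, *Prdx1* and *Gclc* rose with log2 fold changes from 0.92 to 0.35. *Txnrd3*, *Gpx3*, *Txnrd2*, *Prdx6*, *Gstm1*, *Gsta4*, *Cybb* and *Gss* fell, from -0.97 to -0.36. The comparisons share mice, since the WT(LID) group enters this comparison and that of the genotypes under LID. With libraries scaled by their size alone, the median of all genes moved by -0.157 here and by 0.146 in the comparison of genotypes under LID, where the members called higher then numbered 15 and those called lower 8, without *Gpx8*, *Gstm1* and *Cyba*. In WT glands that scaling left 13 members higher under LID and gave 11 lower, and in *Glis3*-Pax8Cre glands it left 10 higher.

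Glands without GLIS3 also answered to LID, mostly upward. In *Glis3*-Pax8Cre(LID) against *Glis3*-Pax8Cre(ND), the same test called 14 members higher and 4 lower, where 13.1% and 12.3% of all tested genes were called, and the medians were 0.21 for the members and -0.03 over all genes. The members higher under LID in both genotypes were 12: *Sod3*, *Gpx2*, *Gpx7*, *Prdx1*, *Prdx4*, *Srxn1*, *Txnrd1*, *Gsr*, *Nfe2l2*, *Hmox1*, *Mt1* and *Mt2*. *Txn1* and *Txn2* rose in *Glis3*-Pax8Cre glands and were not called in WT glands, whereas *Gclc*, *Gclm* and *Cyba* rose in WT glands and were not called in *Glis3*-Pax8Cre glands. *Gpx7*, *Sod3* and *Mt1* rose by over 2-fold. *Txnrd3* and *Cybb* fell in both genotypes, and *Ncf1* and *Nox4* fell in *Glis3*-Pax8Cre glands, so that without replicate 2 of *Glis3*-Pax8Cre(ND), where both lost their calls, 2 lower members were left. With equal replicate numbers treated as blocks of these 8 mice, 11 members were called higher and 2 lower, as *Txn1*, *Txn2*, *Hmox1*, *Txnrd3* and *Ncf1* lost their calls.

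The interaction of genotype and diet was called for 8 members. It was higher for *Gpx3*, *Gstm1*, *Prdx6* and *Txnrd3* and lower for *Sod3*, *Srxn1*, *Ncf1* and *Hmox1*, so 4 members lay on each side, beside 4.43% and 7.41% of all tested genes by the same test. The median interaction was -0.01 for the members and -0.01 over all genes. Of the members that LID raised in WT glands, *Sod3*, *Gpx2*, *Srxn1*, *Txnrd1*, *Gclm*, *Gsr* and *Cyba* were lower without GLIS3 under LID, but for *Gpx2*, *Txnrd1*, *Gclm*, *Gsr* and *Cyba* the interaction was not called. *Gpx3*, *Prdx6*, *Txnrd3* and *Gsta4* fell under LID in WT glands and were higher without GLIS3 under LID. The count of 4 higher members was 2 or 1 in the fits without replicate 1, 2 or 4 of *Glis3*-Pax8Cre(LID), any single mouse of WT(LID), replicate 3 of *Glis3*-Pax8Cre(ND), or replicate 3 or 4 of WT(ND), and the count of 4 lower members was 4 or 5 in all 16 fits without a mouse.

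**Figure D2:**
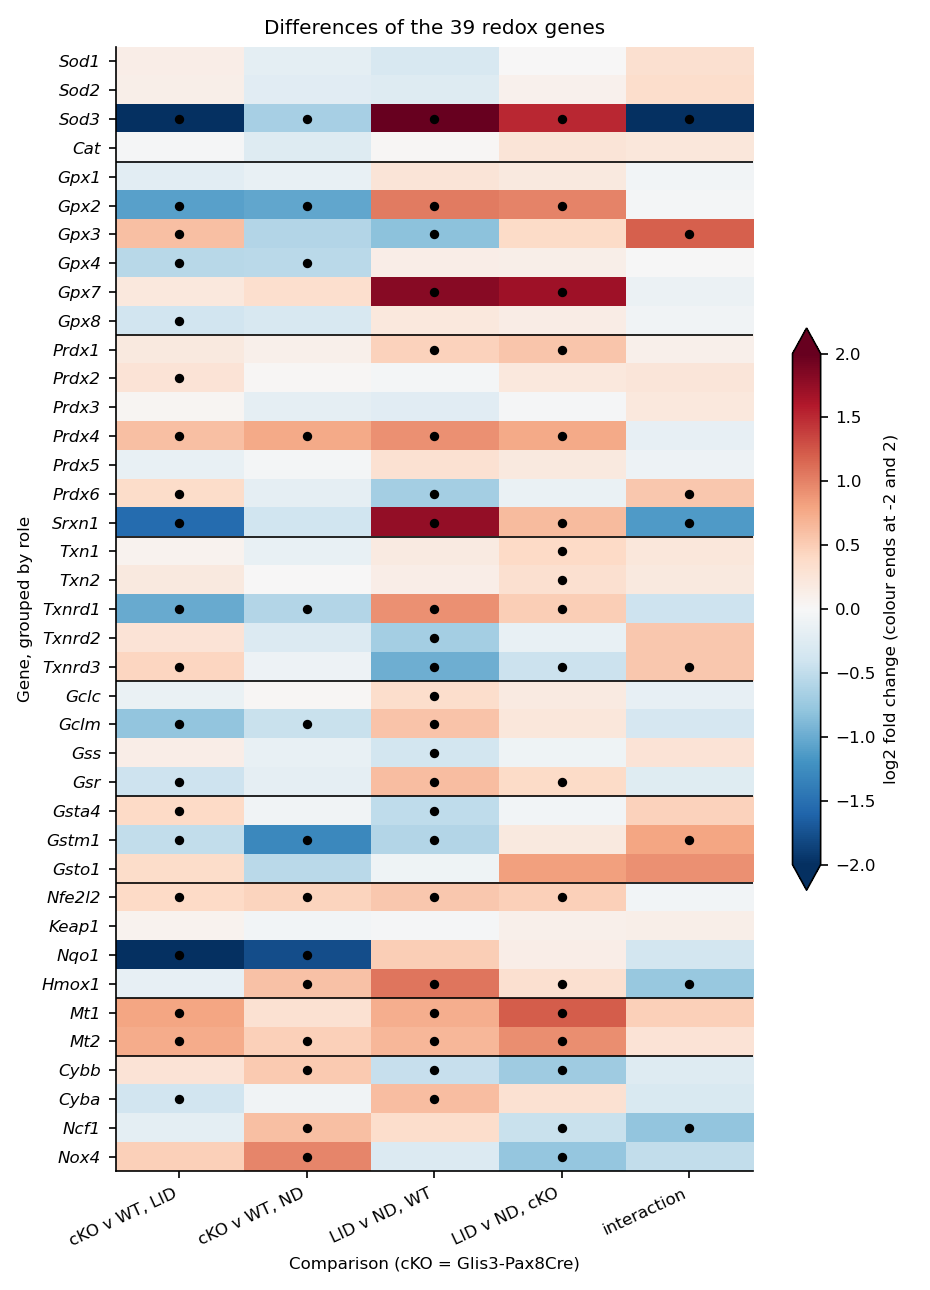
Log2 fold changes (colour, which ends at -2 and 2) of the 39 genes (vertical axis, grouped by role) in the 4 comparisons and the interaction (horizontal axis, cKO is *Glis3*-Pax8Cre), with a dot where the adjusted p was under 0.05. In the LID comparison of the genotypes 9 genes are called higher and 11 lower, and in WT glands 15 are called higher and 8 lower under LID.

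**Figure D3:**
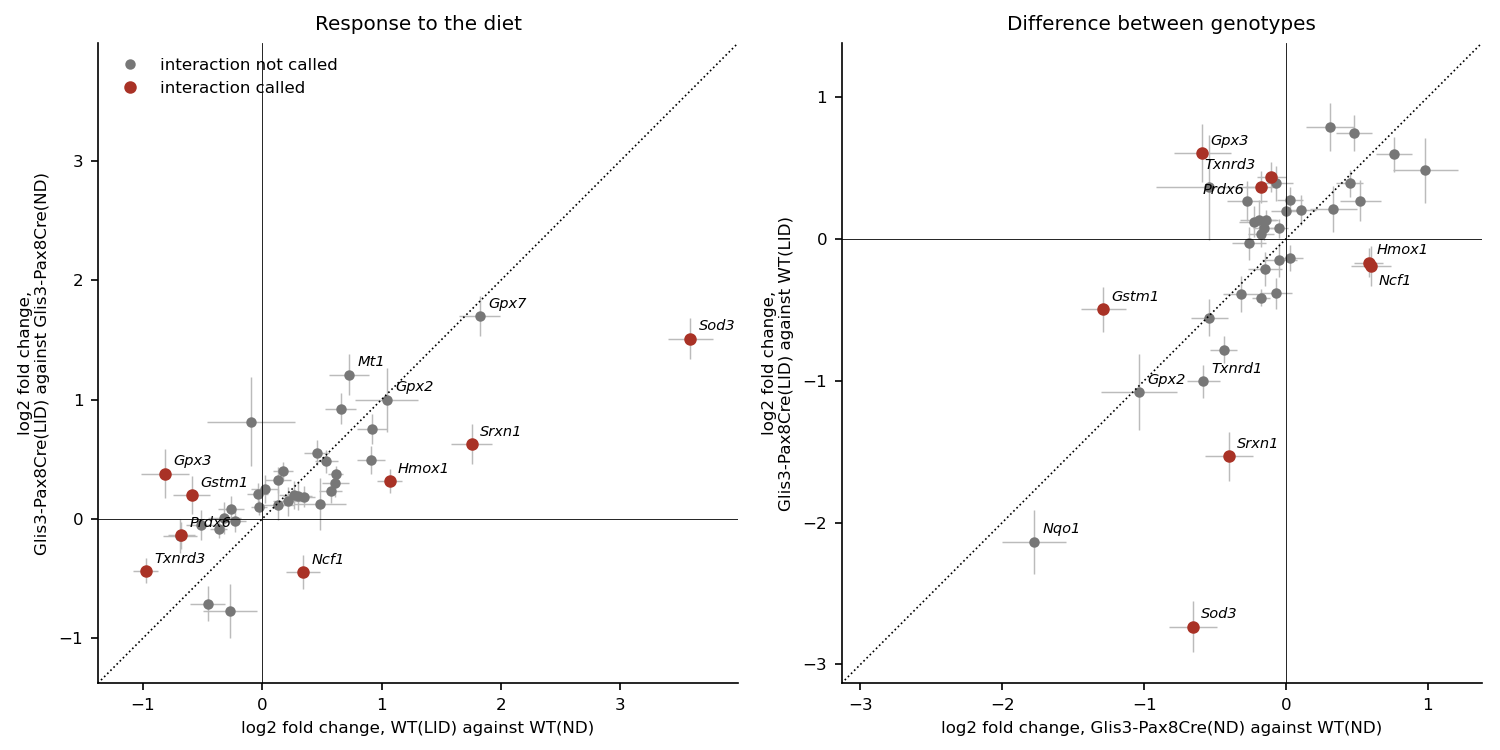
Log2 fold changes of the 39 genes with their standard errors: left, the response to LID in WT (horizontal axis) and in *Glis3*-Pax8Cre (vertical axis); right, the difference between genotypes on ND (horizontal axis) and under LID (vertical axis). Red points are the 8 genes with a called interaction, and *Sod3* lies farthest from the dotted line of equal values, at 3.59 and 1.51 on the left.

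The promoters of some members hold the core of the antioxidant response element, TGACNNNGC, within a window of 300 bases around a listed transcription start. In the mouse assembly GRCm38.p6, 7 of the 33 member genes with a listed promoter (21.21%) held it, *Gclm*, *Mt2*, *Nfe2l2*, *Prdx1*, *Sod1*, *Srxn1* and *Txnrd1*, beside 13.99% of 27025 genes. No promoter was listed for *Gclc*, *Gsr*, *Gsta4*, *Hmox1*, *Prdx6* and *Sod3*. The core of the GLIS binding site, TGGGGGGT, stood in the promoters of *Nfe2l2* and *Txnrd2* (6.06% of the 33 genes, beside 1.79% of all). Of the 7, all but *Sod1* were called higher under LID in WT glands, beside 15 of the 39 members and 20.9% of all tested genes. Scaled by library size only, *Prdx1* was not called there. Between genotypes they did not move together: without GLIS3, *Txnrd1* and *Gclm* were lower on both diets and *Srxn1* under LID. *Mt2* and *Nfe2l2* were higher on both diets, and *Prdx1* and *Sod1* were not called. The sequences of *Txnrd1*, *Gclm* and *Prdx1* upstream of such a start, which for *Txnrd1* lies inside the gene model, follow from the plus strand, on which these 3 genes lie, with the bases of the match in capitals, at chr10:82859066-82859165, chr3:122245377-122245476 and chr4:116685419-116685518. In these 3 genes the core lies on the minus strand, so the capitals show its reverse complement.
Txnrd1: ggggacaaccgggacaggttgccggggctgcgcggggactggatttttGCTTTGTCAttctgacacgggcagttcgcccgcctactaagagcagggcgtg
Gclm: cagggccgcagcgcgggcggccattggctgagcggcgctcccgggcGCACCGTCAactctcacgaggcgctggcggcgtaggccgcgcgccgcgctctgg
Prdx1: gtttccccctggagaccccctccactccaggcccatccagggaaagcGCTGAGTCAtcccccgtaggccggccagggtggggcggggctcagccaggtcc

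*Sod3*, the superoxide dismutase that is secreted (Entrez 20657, chromosome 5, 52363804 to 52369738 of mm10), showed the largest response of the 39 to LID in WT glands. Its values were 128, 140.1, 189 and 174 CPM in the WT mice on ND and 1949.5, 1922, 1797 and 1929 CPM under LID, and 95.5, 108, 131 and 66.6 CPM in the *Glis3*-Pax8Cre mice on ND and 250.3, 323, 298 and 272 CPM under LID. The 4 WT(LID) mice lay above all the others, the *Glis3*-Pax8Cre(LID) mice came next, and the ND groups overlapped only through replicate 3 of *Glis3*-Pax8Cre(ND) and replicate 1 of WT(ND). LID raised it in WT glands with a log2 fold change of 3.59 (SE 0.19) and in *Glis3*-Pax8Cre glands with 1.51 (SE 0.17). The interaction was -2.08 with an adjusted p of 5.59e-05 by edgeR's quasi-likelihood F-test with Benjamini-Hochberg adjustment. On ND the difference between genotypes was called (log2 fold change -0.66, adjusted p 0.0143 from the same test), but not without replicate 4 of WT(ND) (adjusted p 0.0510), nor in a fit of only the 8 mice compared (adjusted p 0.0824), and it was -0.40 when both libraries that stand apart were left out. *Sod1*, the copper and zinc enzyme of the cytosol, *Sod2*, the manganese enzyme of mitochondria, and *Cat*, which breaks down hydrogen peroxide in peroxisomes, were not called in any comparison. Their group means lay between 279 and 347 CPM for *Sod1*, between 103 and 123 CPM for *Sod2*, and between 139 and 169 CPM for *Cat*. *Sod1* was -0.32 on the log2 scale in WT(LID) against WT(ND), with groups that did not overlap, and was called there when only those 8 mice were fitted. *Sod2* was called there without both libraries that stand apart (adjusted p 0.0331 from the same test).

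*Gpx2*, a glutathione peroxidase known from the gut epithelium (Entrez 14776, chromosome 12, 76792335 to 76795554), was lower without GLIS3 on both diets and rose under LID in both genotypes. In single mice it reached 164, 121, 100.4 and 101 CPM in the WT mice on ND and 235, 262, 253 and 254 CPM under LID, and 51.6, 69.8, 86.7 and 29.4 CPM in the *Glis3*-Pax8Cre mice on ND and 95.7, 155, 129.5 and 95.2 CPM under LID. No WT mouse fell below 100.4 CPM on ND, where the highest *Glis3*-Pax8Cre(ND) mouse had 86.7 CPM, and under LID the lowest WT mouse had 235 CPM and the highest *Glis3*-Pax8Cre(LID) mouse 155 CPM. By edgeR's quasi-likelihood F-test with Benjamini-Hochberg adjustment, the difference between genotypes was -1.08 under LID (adjusted p 0.00666) and -1.03 on ND (adjusted p 0.0150). The rise under LID had log2 fold changes of 1.04 in WT and 1.00 in *Glis3*-Pax8Cre glands, and the interaction was -0.04 (adjusted p 0.957 from the same test). The ND call was lost without replicate 1 of WT(ND) (adjusted p 0.0557) from the same test. In fits of only the 8 mice compared, neither the ND difference nor the rise under LID in *Glis3*-Pax8Cre glands was called (adjusted p 0.0757 and 0.0780 from the same test).

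*Gpx3*, whose product is secreted into plasma (Entrez 14778, chromosome 11, 54902854 to 54910387), had 205, 271, 196 and 286 CPM in the WT mice on ND and 139, 125, 148 and 133 CPM under LID, and 212, 158, 169 and 98.1 CPM in the *Glis3*-Pax8Cre mice on ND and 179.6, 265, 219.9 and 164 CPM under LID. The WT(LID) mice lay close together, and all 4 were below every WT(ND) and every *Glis3*-Pax8Cre(LID) mouse, while the ND groups overlapped. It fell under LID in WT glands (log2 fold change -0.81, SE 0.20, adjusted p 0.00466, edgeR's quasi-likelihood F-test with Benjamini-Hochberg adjustment) and was not called in *Glis3*-Pax8Cre glands (log2 fold change 0.38, adjusted p 0.178). The interaction was 1.19 (SE 0.29, adjusted p 0.0134 from the same test). Between the LID groups it was higher without GLIS3 by 0.60 on the log2 scale, a call that was lost when any of these mice was left out: replicates 2 and 3 of *Glis3*-Pax8Cre(LID) and replicates 1, 2, 3 and 4 of WT(LID) (adjusted p 0.0536 to 0.115) from the same test. On ND it was -0.59 and not called (adjusted p 0.0526 from the same test), while DESeq2 called it (adjusted p 0.0284). *Gpx7*, which oxidises protein disulfide isomerase in the endoplasmic reticulum (Entrez 67305, chromosome 4, 108400217 to 108406713), gave 7.99, 7.35, 9.04 and 7.48 CPM in the WT mice on ND and 29.4, 25.9, 23.8 and 33.4 CPM under LID, and 9.66, 11.4, 11.7 and 7.31 CPM in the *Glis3*-Pax8Cre mice on ND and 26.4, 42.4, 29.9 and 31.8 CPM under LID. Every LID mouse lay above every ND mouse, and the genotypes overlapped on each diet. Its log2 fold changes under LID were 1.82 in WT and 1.70 in *Glis3*-Pax8Cre glands (adjusted p 9.02e-07 and 8.66e-06 from the same test), with an interaction of -0.12 that was not called.

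*Gpx4*, the peroxidase of membrane lipids, was lower without GLIS3 by like amounts on both diets, at 246 ± 26.1 CPM in *Glis3*-Pax8Cre(LID) against 361 ± 36.6 CPM in WT(LID). On ND the means were 226 ± 45.3 and 329 ± 24.9 CPM, and the log2 fold changes between genotypes were -0.56 under LID and -0.54 on ND, with groups that did not overlap on either diet. The ND call was lost in a fit of only the 8 ND mice, and LID was not called in either genotype. *Gpx8*, a peroxidase of the endoplasmic reticulum like *Gpx7*, was lower in *Glis3*-Pax8Cre(LID) than in the WT(LID) mice by edgeR's quasi-likelihood F-test with Benjamini-Hochberg adjustment (log2 fold change -0.39, adjusted p 0.0272), with overlapping groups. That call was lost without any single mouse of these: replicates 3 and 4 of *Glis3*-Pax8Cre(LID) and replicates 1 and 4 of WT(LID) (adjusted p 0.0682 to 0.0882) from the same test. *Gpx1*, the most general glutathione peroxidase, was not called, with group means from 127 to 169 CPM, but in only the 8 WT mice it was called for LID.

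*Srxn1*, which restores peroxiredoxins that hydrogen peroxide has over-oxidised (Entrez 76650, chromosome 2, 152105524 to 152111376), rose under LID more where GLIS3 was present. Mouse by mouse the values were 46.7, 52.8, 30.7 and 35.9 CPM in the WT mice on ND and 164, 119, 117 and 161 CPM under LID, and 37.8, 27.6, 29.2 and 31.3 CPM in the *Glis3*-Pax8Cre mice on ND and 57.8, 43.6, 47.4 and 45.1 CPM under LID. Each WT(LID) mouse had at least 117 CPM and no mouse of the other groups more than 57.8 CPM, while the ND groups overlapped. LID raised it by 1.75 in WT and by 0.63 in *Glis3*-Pax8Cre glands, with an interaction of -1.13 (adjusted p 0.00623 by edgeR's quasi-likelihood F-test with Benjamini-Hochberg adjustment). Under LID it was lower without GLIS3 (log2 fold change -1.53, SE 0.17, adjusted p 9.32e-06 from the same test), and on ND the difference of -0.40 was not called, except without replicate 3 of WT(ND), which stands apart (adjusted p 0.0378 from the same test). The rise in *Glis3*-Pax8Cre glands was not called when scaled by library size only (adjusted p 0.0708 from the same test). *Prdx6*, which also acts on phospholipid peroxides (Entrez 11758, chromosome 1, 161240112 to 161251210), measured 119, 123, 125 and 159 CPM in the WT mice on ND and 85.7, 80.9, 81.0 and 81.3 CPM under LID, and 130.4, 117, 116 and 102 CPM in the *Glis3*-Pax8Cre mice on ND and 120.4, 112, 85.2 and 106 CPM under LID. All WT(LID) mice lay below all WT(ND) mice, and replicate 3 of *Glis3*-Pax8Cre(LID) reached down into the WT(LID) range. It fell under LID in WT glands (log2 fold change -0.67, SE 0.11, adjusted p 0.000232 from the same test), and the interaction was 0.54 (adjusted p 0.0390 from the same test). Leaving out a single mouse ended the interaction call for replicates 1, 2 and 4 of *Glis3*-Pax8Cre(LID), replicates 1, 2, 3 and 4 of WT(LID), replicates 2, 3 and 4 of *Glis3*-Pax8Cre(ND) and replicates 3 and 4 of WT(ND) (adjusted p 0.0529 to 0.0893) from the same test. The higher level in *Glis3*-Pax8Cre(LID) than in the WT(LID) mice (log2 fold change 0.36, adjusted p 0.0233 from the same test) was lost without replicates 1 and 2 of *Glis3*-Pax8Cre(LID) and replicates 2, 3 and 4 of WT(LID) (adjusted p 0.0538 to 0.0774) in the same way.

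*Prdx4*, the peroxiredoxin of the endoplasmic reticulum, was higher without GLIS3 on both diets and higher under LID in both genotypes. Its means were 48.3 ± 3.31 CPM in WT(ND), 91.2 ± 5.87 in WT(LID), 81.8 ± 16.7 in *Glis3*-Pax8Cre(ND) and 138 ± 15.99 in *Glis3*-Pax8Cre(LID), and none of the 4 comparisons had overlapping groups. The log2 fold changes were 0.60 between genotypes under LID, 0.76 on ND, 0.92 for LID in WT and 0.75 for LID in *Glis3*-Pax8Cre glands. *Prdx1*, a cytosolic peroxiredoxin, rose under LID in WT (0.46) and *Glis3*-Pax8Cre glands (0.56) and was not called between genotypes. *Prdx2*, its close relative of the cytosol, was higher in *Glis3*-Pax8Cre(LID) than in the WT(LID) mice (log2 fold change 0.28, adjusted p 0.0274 by edgeR's quasi-likelihood F-test with Benjamini-Hochberg adjustment), but not without replicate 2 of *Glis3*-Pax8Cre(LID) and replicates 2 and 3 of WT(LID) (adjusted p 0.0769 to 0.0979) from the same test. *Prdx3*, of mitochondria, and *Prdx5*, of mitochondria and peroxisomes, were not called in any comparison, with group means from 112 to 131 CPM and from 225 to 285 CPM. For LID in WT glands *Prdx5* was called by DESeq2 (adjusted p 0.0404) and in only those 8 mice (adjusted p 0.0135 from the same test), and *Prdx3* when scaled by library size only (adjusted p 0.0113 from the same test).

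*Txnrd1*, the cytosolic thioredoxin reductase (Entrez 50493, chromosome 10, 82833951 to 82897724), was lower without GLIS3 on both diets and higher under LID in both genotypes. The single values were 139.9, 134, 87.7 and 114 CPM in the WT mice on ND and 224, 218, 211 and 242 CPM under LID, and 81.6, 75.5, 76.1 and 84.3 CPM in the *Glis3*-Pax8Cre mice on ND and 119.8, 99.8, 114 and 113 CPM under LID. No group overlapped another in the 4 comparisons, although replicate 3 of WT(ND) at 87.7 CPM came within a few CPM of the highest *Glis3*-Pax8Cre(ND) mouse at 84.3 CPM. Between genotypes it differed by -1.003 under LID and -0.58 on ND (adjusted p 1.39e-05 and 0.00303 by edgeR's quasi-likelihood F-test with Benjamini-Hochberg adjustment). LID raised it by 0.91 in WT and 0.49 in *Glis3*-Pax8Cre glands, and the interaction of -0.42 was not called (adjusted p 0.113 from the same test). *Eid3* shares 1304 bases of the same strand with *Txnrd1*, but had a mean count of 14.6 against 11877. *Txnrd3*, a reductase for thioredoxin and glutathione best known from testis (Entrez 232223, chromosome 6, 89643988 to 89675529), went the other way under LID, with 19.9, 18.9, 24.6 and 22.0 CPM in the WT mice on ND and 11.1, 11.1, 10.8 and 10.3 CPM under LID, and 19.4, 22.6, 20.7 and 16.6 CPM in the *Glis3*-Pax8Cre mice on ND and 15.5, 13.8, 13.5 and 15.9 CPM under LID. The WT(LID) mice were the lowest, within 10.3 to 11.1 CPM, the *Glis3*-Pax8Cre(LID) mice lay between them and both ND groups, and the ND groups overlapped. It fell under LID in WT (log2 fold change -0.97, SE 0.11, adjusted p 4.01e-06 from the same test) and in *Glis3*-Pax8Cre glands (log2 fold change -0.43, SE 0.10, adjusted p 0.00724 from the same test), with an interaction of 0.54 (adjusted p 0.0259 from the same test). The interaction call was lost in the fits without replicates 1 and 4 of *Glis3*-Pax8Cre(LID), replicates 2, 3 and 4 of WT(LID) and replicates 3 and 4 of WT(ND) (adjusted p 0.0527 to 0.0612) from the same test.

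*Txn1*, the cytosolic thioredoxin, rose under LID in *Glis3*-Pax8Cre glands from 233 ± 15.9 to 306 ± 30.7 CPM (log2 fold change 0.40) and was not called in WT glands, at 258 ± 8.94 and 291 ± 19.0 CPM. Its interaction of 0.23 was not called, so the responses of the genotypes were not shown to differ. *Txn2*, the mitochondrial thioredoxin, had a log2 fold change of 0.33 for LID in *Glis3*-Pax8Cre glands (adjusted p 0.0363 by edgeR's quasi-likelihood F-test with Benjamini-Hochberg adjustment), with overlapping groups. This call was lost without replicates 1, 2 and 3 of *Glis3*-Pax8Cre(LID), replicates 2 and 3 of WT(LID), replicates 2, 3 and 4 of *Glis3*-Pax8Cre(ND) and replicate 4 of WT(ND) (adjusted p 0.0511 to 0.106) from the same test. *Txnrd2*, the mitochondrial reductase, fell under LID in WT glands from 13.7 ± 1.86 to 8.51 ± 0.314 CPM (log2 fold change -0.68, adjusted p 0.00131 from the same test).

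*Gclm*, the modifier subunit of the enzyme that starts glutathione synthesis, was lower without GLIS3 on both diets and rose under LID in WT glands. Its means were 38.8 ± 3.16 CPM in WT(ND), 57.8 ± 5.90 in WT(LID), 28.6 ± 2.37 in *Glis3*-Pax8Cre(ND) and 33.6 ± 3.13 in *Glis3*-Pax8Cre(LID), and the groups did not overlap in any of the 4 comparisons. The log2 fold changes were -0.78 between genotypes under LID, -0.44 on ND and 0.57 for LID in WT glands, while 0.23 for LID in *Glis3*-Pax8Cre glands was not called. *Gclc*, the catalytic subunit, rose in WT glands (0.35). Scaled by library size only, that call ended (adjusted p 0.193 by edgeR's quasi-likelihood F-test with Benjamini-Hochberg adjustment). In *Glis3*-Pax8Cre glands it was not called, except without replicate 2 of *Glis3*-Pax8Cre(LID) (adjusted p 0.0360 from the same test), and it was not called between genotypes. *Gsr*, which reduces oxidised glutathione, rose under LID in WT (0.62) and *Glis3*-Pax8Cre glands (0.38) and stood at 44.2 ± 0.498 CPM in *Glis3*-Pax8Cre(LID) against 58.8 ± 1.22 CPM in WT(LID) (log2 fold change -0.41). *Gss*, the second enzyme of glutathione synthesis, fell under LID in WT glands from 15.6 ± 0.602 to 12.2 ± 0.788 CPM and was not called elsewhere. The interaction lay between -0.34 for *Gclm* and 0.28 for *Gss* and was not called by edgeR for these 4 genes, while DESeq2 called it for *Gsr* and *Gss*.

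*Gstm1*, a glutathione S-transferase of electrophiles (Entrez 14862, chromosome 3, 108012250 to 108017973), was lower without GLIS3, most of all on ND. The mice gave 154, 144, 132 and 152 CPM in the WT mice on ND and 95.9, 94.2, 101 and 94.9 CPM under LID, and 75.2, 66.7, 57.2 and 39.5 CPM in the *Glis3*-Pax8Cre mice on ND and 79.3, 77.4, 62.3 and 54.7 CPM under LID. WT mice lay above *Glis3*-Pax8Cre mice on each diet without overlap, all WT(LID) mice lay below all WT(ND) mice, and the *Glis3*-Pax8Cre groups overlapped. The difference between genotypes was -1.29 on ND (SE 0.16, adjusted p 0.000101 by edgeR's quasi-likelihood F-test with Benjamini-Hochberg adjustment) and -0.50 under LID (adjusted p 0.0254 from the same test). The LID call was lost without replicates 3 and 4 of *Glis3*-Pax8Cre(LID) and replicate 3 of WT(LID) (adjusted p 0.0592 to 0.0829) from the same test. LID lowered *Gstm1* by -0.59 on the log2 scale in WT glands and gave 0.20, not called, without GLIS3, with an interaction of 0.79 (adjusted p 0.0304 from the same test). The interaction call was lost without replicates 1 and 2 of *Glis3*-Pax8Cre(LID), replicates 1, 2, 3 and 4 of WT(LID), replicate 3 of *Glis3*-Pax8Cre(ND) and replicates 1 and 4 of WT(ND) (adjusted p 0.0523 to 0.0657) from the same test. *Gsta4*, which conjugates products of lipid peroxidation, fell under LID in WT glands (-0.51) and was higher in *Glis3*-Pax8Cre(LID) than in the WT(LID) mice (log2 fold change 0.39, adjusted p 0.0265 from the same test), though not without replicates 1 and 2 of *Glis3*-Pax8Cre(LID) and replicates 1, 2 and 3 of WT(LID) (adjusted p 0.0651 to 0.0949) from the same test. *Gsto1*, an omega class transferase, was not called, with values from 4.69 to 24.2 CPM, the highest in replicate 1 of *Glis3*-Pax8Cre(LID). *Gstm1* has a close relative in *Gstm2*, and *Gsta4* in *Gsta3*, so that reads shared between them may have been left out of their counts.

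*Nqo1*, a quinone reductase widely used as a readout of NRF2 (Entrez 18104, chromosome 8, 107388225 to 107403205), was the member with the largest difference between genotypes on ND. Its values were 21.2, 19.0, 9.31 and 17.8 CPM in the WT mice on ND and 25.4, 22.4, 19.2 and 27.3 CPM under LID, and 5.65, 4.45, 3.68 and 5.99 CPM in the *Glis3*-Pax8Cre mice on ND and 5.86, 4.56, 4.97 and 6.08 CPM under LID. All 8 WT mice lay above all 8 *Glis3*-Pax8Cre mice, whose highest value was 6.08 CPM, and the lowest WT mouse was replicate 3 of WT(ND). Between genotypes it differed by -2.14 under LID (SE 0.22, adjusted p 5.19e-06) and by -1.77 on ND (SE 0.22, adjusted p 0.000122) by edgeR's quasi-likelihood F-test with Benjamini-Hochberg adjustment. LID gave 0.49 in WT and 0.13 in *Glis3*-Pax8Cre glands, neither of them called, although the first was called without replicate 1 of WT(ND) (adjusted p 0.0434 from the same test) and with equal replicate numbers as blocks of all 16 mice (adjusted p 0.0133 from the same test). *Hmox1*, which degrades haem (Entrez 15368, chromosome 8, 75093618 to 75100593), gave 21.2, 22.0, 22.5 and 18.2 CPM in the WT mice on ND and 51.6, 38.7, 38.6 and 46.9 CPM under LID, and 34.5, 29.6, 29.8 and 31.9 CPM in the *Glis3*-Pax8Cre mice on ND and 42.6, 40.7, 35.4 and 37.9 CPM under LID. The WT(ND) mice were the lowest and did not overlap any other group, and the LID groups overlapped. It was higher without GLIS3 on ND (log2 fold change 0.58, SE 0.10, adjusted p 0.00140 from the same test) and rose under LID in WT glands (log2 fold change 1.07, SE 0.10, adjusted p 1.46e-06 from the same test). The interaction was -0.75 (adjusted p 0.00346 from the same test). Without GLIS3 the rise under LID was 0.32, a call that was lost without replicates 1, 2 and 4 of *Glis3*-Pax8Cre(LID), replicates 2 and 3 of *Glis3*-Pax8Cre(ND) and replicate 1 of WT(ND) (adjusted p 0.0520 to 0.0898) from the same test. Scaled by library size only, this rise was 0.18 and not called (adjusted p 0.3355 from the same test). Nor was it called in only the 8 mice compared (adjusted p 0.0592 from the same test).

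*Nfe2l2* itself was higher without GLIS3 on each diet and higher under LID in each genotype. Its means were 212 ± 15.6 CPM in WT(ND), 308 ± 19.0 in WT(LID), 289 ± 41.7 in *Glis3*-Pax8Cre(ND) and 404 ± 16.2 in *Glis3*-Pax8Cre(LID), with no overlap in any of the 4 comparisons. The log2 fold changes were 0.39 between genotypes under LID, 0.45 on ND, 0.54 for LID in WT and 0.48 for LID in *Glis3*-Pax8Cre glands, and the interaction was -0.06. *Keap1* was not called in any comparison, and its group means lay between 67.0 and 71.6 CPM. Levels of transcripts do not measure the activity of NRF2, which is set largely by its stability as a protein.

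**Figure D4:**
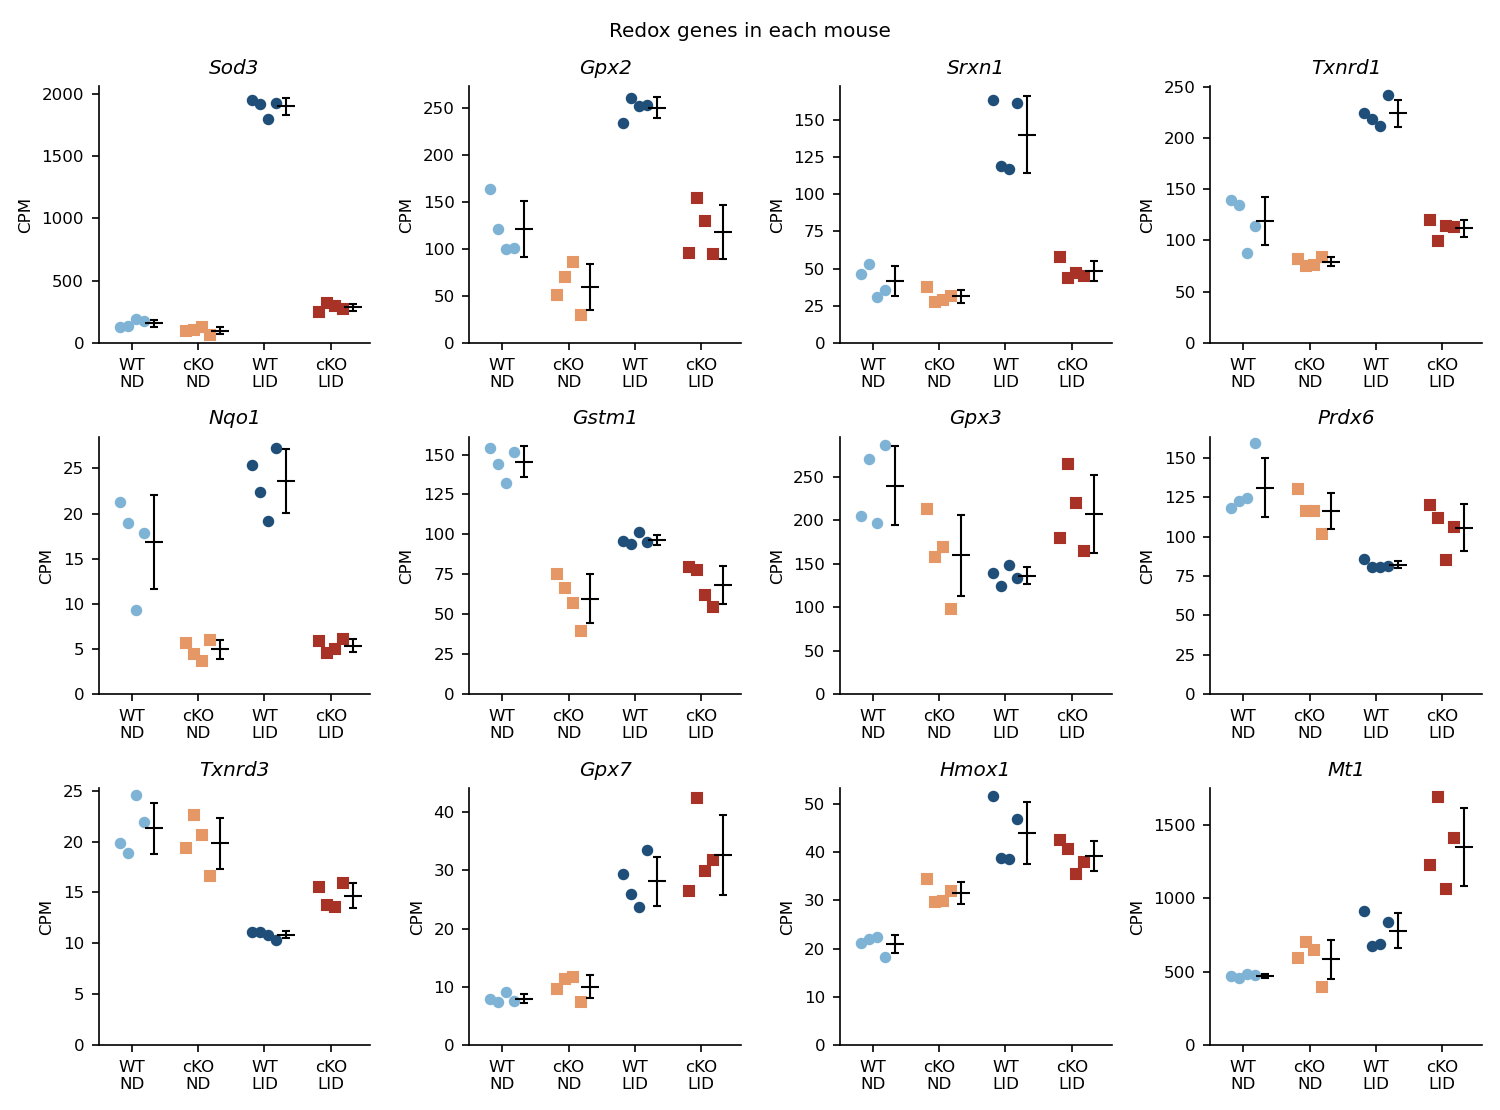
CPM (vertical axes, from 0) of 12 redox genes in each of the 16 mice (points) by group (horizontal axis, cKO is *Glis3*-Pax8Cre), with the mean and SD of 4 mice beside them. *Nqo1* stays at or below 6.08 CPM in every *Glis3*-Pax8Cre mouse, and *Srxn1* exceeds 57.8 CPM only in the WT(LID) mice.

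*Mt1*, a metallothionein that binds zinc and copper (Entrez 17748, chromosome 8, 94179089 to 94180327), was highest under LID in glands without GLIS3. Its values were 470.4, 454, 484 and 479 CPM in the WT mice on ND and 916, 678, 688 and 839 CPM under LID, and 596, 702, 645 and 394 CPM in the *Glis3*-Pax8Cre mice on ND and 1231, 1688, 1065 and 1414 CPM under LID. Every *Glis3*-Pax8Cre(LID) mouse exceeded every other mouse, the WT(LID) mice exceeded the WT(ND) mice, and on ND the genotypes overlapped through replicate 4 of *Glis3*-Pax8Cre(ND). It was higher in *Glis3*-Pax8Cre(LID) than in the WT(LID) mice (log2 fold change 0.79, SE 0.17, adjusted p 0.00232) by edgeR's quasi-likelihood F-test with Benjamini-Hochberg adjustment. LID raised it by 0.73 in WT and 1.21 in *Glis3*-Pax8Cre glands, with an interaction of 0.48 that was not called (adjusted p 0.213 from the same test). On ND it was 0.31 and not called, but without replicate 4 of *Glis3*-Pax8Cre(ND), the library with the highest thymocyte markers, it was called (adjusted p 0.0316 from the same test). *Mt2*, its neighbour on chromosome 8, moved alike, with means of 376 ± 23.1 CPM in WT(ND), 593 ± 79.4 in WT(LID), 524 ± 73.6 in *Glis3*-Pax8Cre(ND) and 995 ± 139 in *Glis3*-Pax8Cre(LID). Its differences between genotypes were 0.75 under LID and 0.48 on ND, and no groups overlapped in the 4 comparisons. *Mt1* and *Mt2* are close in sequence, so reads that fit both may have been left out of their counts. The core of the metal response element, TGCACNC or TGCGCNC, was chosen after the values had been seen, and it stood in the promoters of 10 of the 33 member genes (30.3%), *Mt1* and *Mt2* among them, beside 28.23% of all 27025 genes. The sequences upstream of both gene starts follow because both genes rose under LID in both genotypes, from the plus strand of GRCm38.p6 on which both lie, with the matches to this core in capitals, at chr8:94178939-94179088 and chr8:94172468-94172617. The later match of *Mt2* lies on the minus strand and is shown as the reverse complement of the core.
Mt1: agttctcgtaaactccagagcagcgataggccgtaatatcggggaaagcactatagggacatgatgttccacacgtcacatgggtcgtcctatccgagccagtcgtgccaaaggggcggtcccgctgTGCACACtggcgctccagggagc
Mt2: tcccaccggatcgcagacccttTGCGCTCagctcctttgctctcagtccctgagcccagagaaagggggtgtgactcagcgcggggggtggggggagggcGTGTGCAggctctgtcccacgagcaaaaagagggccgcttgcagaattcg

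*Ncf1*, the subunit that organises the oxidase of phagocytes (Entrez 17969, chromosome 5, 134220053 to 134229625), was higher without GLIS3 on ND and not under LID. Mouse by mouse it had 5.70, 8.42, 8.11 and 7.75 CPM in the WT mice on ND and 9.89, 8.67, 8.14 and 11.4 CPM under LID, and 11.6, 11.3, 9.41 and 13.1 CPM in the *Glis3*-Pax8Cre mice on ND and 8.79, 9.01, 7.78 and 7.82 CPM under LID. The *Glis3*-Pax8Cre(ND) mice lay above all WT(ND) and all *Glis3*-Pax8Cre(LID) mice, and under LID the genotypes overlapped. It was higher in *Glis3*-Pax8Cre(ND) than in the WT(ND) mice (log2 fold change 0.60, SE 0.14, adjusted p 0.00872, edgeR's quasi-likelihood F-test with Benjamini-Hochberg adjustment), and the interaction was -0.79 (adjusted p 0.0180 from the same test). Scaled by library size only, the interaction was not called (adjusted p 0.0610 from the same test). The fall under LID in *Glis3*-Pax8Cre glands (log2 fold change -0.44, adjusted p 0.0324 from the same test) was lost without replicates 3 and 4 of *Glis3*-Pax8Cre(LID) and replicates 1, 2 and 4 of *Glis3*-Pax8Cre(ND) (adjusted p 0.0605 to 0.0777) from the same test. *Cybb*, the catalytic subunit of that oxidase, was higher in *Glis3*-Pax8Cre(ND) at 33.2 ± 1.49 CPM than in the WT(ND) mice at 23.1 ± 4.82 CPM (log2 fold change 0.53, adjusted p 0.0202 from the same test), but not without replicates 1 and 4 of WT(ND) (adjusted p 0.0617 to 0.0618) from the same test. It fell under LID in *Glis3*-Pax8Cre glands (-0.71) and in WT glands (-0.45), where the call was lost without replicate 1 of WT(LID) and replicates 2 and 3 of WT(ND) (adjusted p 0.0533 to 0.0868) from the same test. *Cyba*, the subunit that several oxidases share, rose under LID in WT glands from 126 ± 5.41 to 193 ± 6.33 CPM and was lower in *Glis3*-Pax8Cre(LID) at 148 ± 26.3 CPM, a call that was lost without replicate 1 of *Glis3*-Pax8Cre(LID) (adjusted p 0.0554) from the same test. *Nox4*, an oxidase that makes hydrogen peroxide without a stimulus, was higher in *Glis3*-Pax8Cre(ND) at 13.4 ± 3.80 CPM than in the WT(ND) mice at 6.83 ± 2.17 CPM (log2 fold change 0.98, adjusted p 0.00791 from the same test), but not in only those 8 mice (adjusted p 0.0535 from the same test). Its fall under LID in *Glis3*-Pax8Cre glands (-0.77) was lost without replicates 1 and 2 of *Glis3*-Pax8Cre(LID) and replicates 2 and 3 of *Glis3*-Pax8Cre(ND) (adjusted p 0.0555 to 0.0723) from the same test.

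*Cybb*, *Ncf1* and *Hmox1* are expressed by phagocytes, *Hmox1* by other cells too, and markers of phagocytes are given beside them. Of 9 such markers, which sum to 259, 286, 498 and 309 CPM in WT on ND, WT under LID, *Glis3*-Pax8Cre on ND and *Glis3*-Pax8Cre under LID, 8 were called higher in *Glis3*-Pax8Cre(ND) than in the WT(ND) mice and 6 lower in *Glis3*-Pax8Cre(LID) than in the *Glis3*-Pax8Cre(ND) mice. The sums in single mice were 233, 267, 314 and 221 CPM in WT(ND), 276, 268, 305 and 294 in WT(LID), 421, 419.9, 397 and 754 in *Glis3*-Pax8Cre(ND) and 302, 333, 306 and 293 in *Glis3*-Pax8Cre(LID). In replicate 4 of *Glis3*-Pax8Cre(ND), the library rich in thymocyte markers, 415 of the 754 CPM came from *Ptprc*, which lymphocytes express too. Without *Ptprc* the sums of that group were 400, 398, 377 and 339 CPM, and the group means 235, 260, 379 and 281 CPM in WT on ND, WT under LID, *Glis3*-Pax8Cre on ND and *Glis3*-Pax8Cre under LID. *Ptprc* was not called in any comparison. Over all 16 mice the most CPM came from *C1qb*, no marker was at 0, and the part of phagocytes in the values of *Cybb*, *Ncf1* and *Hmox1* was not tested. Under LID, 1 of the 9 was higher in *Glis3*-Pax8Cre(LID) than in the WT(LID) mice, 2 were higher and 0 lower in WT(LID) than in the WT(ND) mice, where *Cybb* was lower, and 3 had a lower interaction. The related subunit *Ncf4* had -0.57 for LID in *Glis3*-Pax8Cre glands and an interaction of -0.70, and it was picked after its values had been seen. *Hmox1* was higher without GLIS3 on ND (0.58), where 8 of the 9 markers were higher, and its interaction was lower (-0.75). It rose under LID in WT glands. It also rose in *Glis3*-Pax8Cre glands, where 6 of the 9 were lower, in a call that was lost without single mice.

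*Sod3* and *Cyba* rose under LID in WT glands beside markers of vessels. All 5 endothelial markers, which sum to 553, 1418, 696 and 659.6 CPM in WT on ND, WT under LID, *Glis3*-Pax8Cre on ND and *Glis3*-Pax8Cre under LID and over all 16 mice take most CPM from *Kdr*, were higher in WT(LID) than in the WT(ND) mice, lower in *Glis3*-Pax8Cre(LID) than in the WT(LID) mice and lower in the interaction. Their sums in the mice were 537, 496, 590.2 and 588 CPM in WT(ND), 1349, 1389, 1524 and 1409 in WT(LID), 601, 858, 696 and 630.5 in *Glis3*-Pax8Cre(ND) and 603, 632, 809.7 and 593 in *Glis3*-Pax8Cre(LID). Of 4 markers of smooth muscle and pericytes, with most CPM from *Rgs5* and sums of 388, 984, 536 and 516 CPM, 3 were higher in WT(LID) than in the WT(ND) mice and 4 lower in *Glis3*-Pax8Cre(LID) than in the WT(LID) mice. No marker of these lists was at 0. While the endothelial sum went from 553 to 1418 CPM under LID in WT glands, *Sod3* went from 158 to 1899.5 CPM and *Cyba* from 126 to 193 CPM. In *Glis3*-Pax8Cre glands, where *Sod3* rose under LID too, 0 of the 5 endothelial markers were higher and 2 lower under LID. On ND, where *Sod3* was lower without GLIS3, 1 of the endothelial markers was higher and 0 lower, and of 4 fibroblast markers 0 were higher and 2 lower. For LID, where *Sod3* rose, 1 of the 4 fibroblast markers was higher and 2 lower in WT glands. In *Glis3*-Pax8Cre glands 1 was higher and 1 lower. *Gpx2*, *Srxn1*, *Txnrd1*, *Gclm* and *Gsr* also rose under LID in WT glands and were lower without GLIS3 under LID, and *Srxn1* was lower in the interaction. The part of vessel cells in the values of *Sod3*, *Cyba* and these other members was not tested, nor was that of fibroblasts in the values of *Sod3*.

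**Figure D5:**
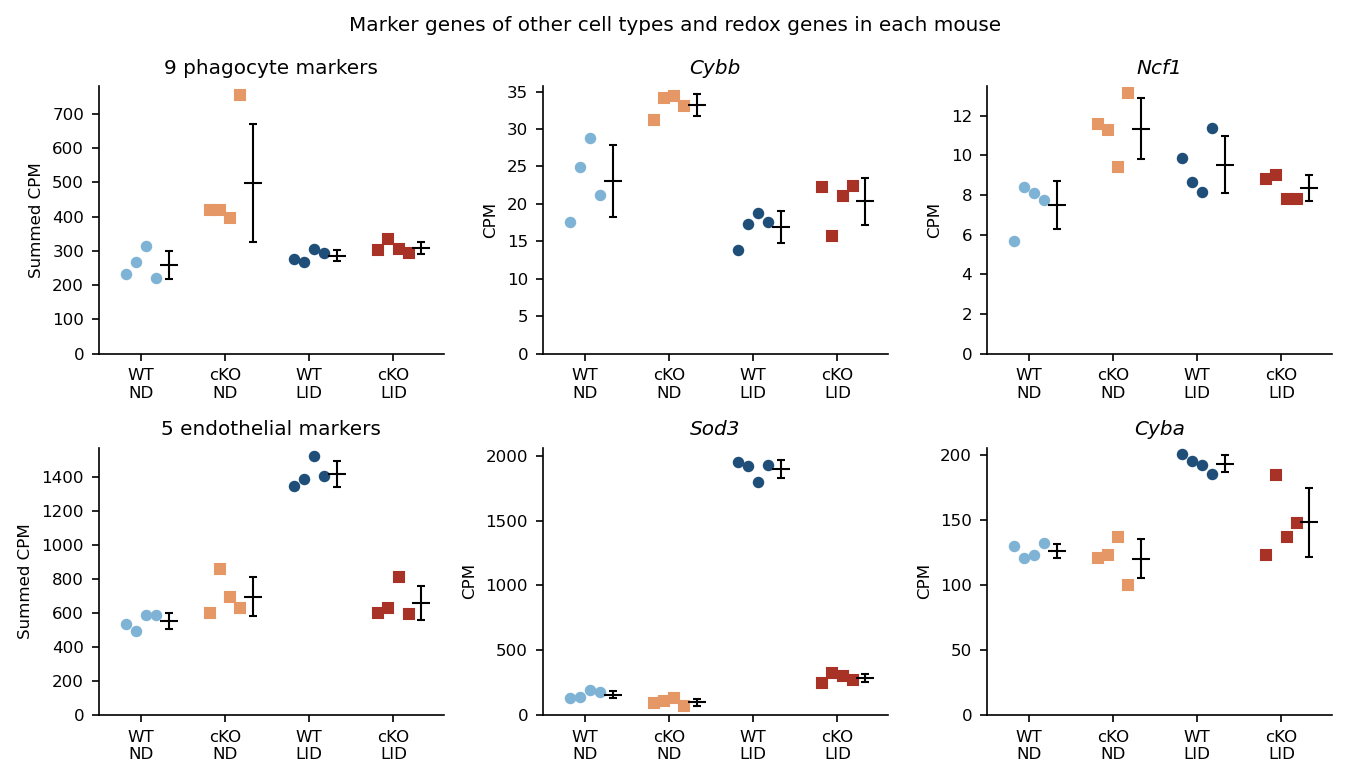
Summed CPM of 9 phagocyte and 5 endothelial markers (left) and CPM of *Cybb*, *Ncf1*, *Sod3* and *Cyba* (vertical axes, from 0) in each of the 16 mice by group (horizontal axis, cKO is *Glis3*-Pax8Cre), with mean and SD. The phagocyte sum is highest in the *Glis3*-Pax8Cre(ND) mice (498 on average) and the endothelial sum in the WT(LID) mice (1418).

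Other cell types of the neck contributed unevenly to the same libraries. The marker named with each list has the highest mean CPM over all 16 mice and need not lead in every group. In WT(LID), *Ucp1* had 13.1 of the 121 CPM of the adipocyte markers. Sums of adipocyte markers (5, most CPM from *Ucp1*) were 529, 121, 222 and 225 CPM in WT on ND, WT under LID, *Glis3*-Pax8Cre on ND and *Glis3*-Pax8Cre under LID, with 5 of 5 lower in WT(LID) than in the WT(ND) mice and 3 of 5 higher in the interaction (median 1.59), the directions of *Gpx3* and *Gstm1*. Parathyroid markers (3, most CPM from *Pth*) summed to 4978, 1246, 3826 and 1166 CPM and C cell markers (3, most CPM from *Calca*) to 3864, 1752, 2055 and 1530.2 CPM, with 3 of 3 of each lower in WT(LID) than in the WT(ND) mice, where *Prdx6* and *Txnrd3* fell too. All 3 parathyroid markers and 1 C cell marker were also lower under LID in *Glis3*-Pax8Cre glands, where *Txnrd3* fell and *Prdx6* was not called. The 3 C cell markers were lower without GLIS3 on ND, where neither gene was called. In the interaction 0 of the parathyroid and 1 of the C cell markers were higher. Fibroblast markers (4, most CPM over all 16 mice from *Col1a1*) summed to 436, 652, 271 and 330.4 CPM. The larger sum in WT(LID) than in WT(ND) came with *Col1a1*, at 468 against 133 CPM. In that comparison 1 of the 4 was called higher and 2 lower. Follicular markers (6, most CPM from *Tg*) summed to 258771, 272157, 154140 and 127380 CPM. Under LID 1 of the 4 fibroblast and 1 of the 6 follicular markers were lower in *Glis3*-Pax8Cre mice, and 3 of the follicular markers higher. Neutrophil markers (6, most CPM from *S100a9*) summed to at most 2.73 CPM in a group. Of the 4 that passed the filter, 2 were lower in WT(LID) than in the WT(ND) mice and 1 was lower under LID in *Glis3*-Pax8Cre glands. Without GLIS3, 1 was higher on ND and 2 were higher under LID. *Cybb* was called in these directions except between the genotypes under LID, and the part of neutrophils in its values was not tested. Of 4 erythroid markers, *Hba-a1* and *Hbb-bs* had a count of 0 in all mice, so that their levels are not given, and the sums of 15.6, 34.5, 14.4 and 18.7 CPM came mostly from *Alas2*. Skeletal muscle markers (4, most CPM from *Acta1*) ranged from 1.29 to 1055 CPM in single mice, and neither they nor the erythroid or thymocyte markers were called by edgeR in any comparison. The part of these cell types in the values of *Gpx3*, *Gstm1*, *Prdx6* and *Txnrd3* was not tested.

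Beyond the 39 members, 90 other redox genes were listed, and 88 were tested, as *Akr1b3* and *Nox1* did not pass the filter. They were called higher and lower in numbers of 20 and 14 for the genotypes under LID (22.7% and 15.9%, beside 14.9% and 15.4% of all tested genes) and 13 and 15 on ND (14.8% and 17%, beside 10.3% and 9.25%). For LID the numbers were 19 and 14 in WT glands (21.6% and 15.9%, beside 20.9% and 20.8%) and 17 and 3 in *Glis3*-Pax8Cre glands (19.3% and 3.41%, beside 13.1% and 12.3%). In the interaction they were 6 and 7 (6.82% and 7.95%, beside 4.43% and 7.41%). The genes named next had a mean of at least 5 CPM and groups that did not overlap. Among called genes that met these conditions, *Gsta3* (1.13), *Ggct* (1.09) and *Gstk1* (0.95) had the highest log2 fold changes between genotypes under LID. *Maff* (-0.82), *Ggt5* (-0.78) and *Msrb3* (-0.66) had the lowest. In that comparison 1 called gene of the other NADPH oxidase subunits, which did not meet them, differed by over 2-fold too. *Gsta3*, a relative of *Gsta4*, had means of 108, 152, 457 and 333 CPM in WT on ND, WT under LID, *Glis3*-Pax8Cre on ND and *Glis3*-Pax8Cre under LID. Under the same conditions, *Ggct* (1.74), *Maff* (1.60) and the zinc importer gene *Slc39a14* (1.35) rose most under LID in WT glands. *Duoxa1* (-1.65), *Txnip* (-1.52), whose product binds thioredoxin, and *Tkt* (-1.18) fell most. *Slc39a14* was also higher without GLIS3 on both diets (0.38 and 0.64), as *Mt2* was. Of 8 genes listed for the pentose phosphate pathway and the supply of NADPH, 5 were lower and 0 higher without GLIS3 on ND, where 9.25% of all genes were lower. They were *Tkt* (-0.88), *Me1* (-0.63), *G6pdx* (-0.55), *Idh1* (-0.48) and *Pgd* (-0.42), named after their values had been seen. *Txnrd1*, *Gsr* and *Nqo1* use NADPH, which the products of *Tkt* and *Taldo1* in this list do not make themselves. Under LID 2 of the 8 were lower and 1 higher. On ND 1 of 5 adipocyte, 2 of 4 fibroblast and 3 of 3 C cell markers were lower without GLIS3 too, and the part of these cell types was not tested.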

How the data were processed

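RNA of thyroid glands was sequenced in 16 mice, and the values used are raw read-pair counts per gene as deposited. According to the processing notes of the submitters, the authors mapped reads to mm10 with STAR 2.5 and counted pairs per RefSeq gene with featureCounts 1.5.0-p1, without regard to strand and without normalization. Instruments are not assigned to libraries in the notes, so no term for them was fitted.

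From these counts, R 4.3.3 and edgeR 4.0.16 were used to keep genes by filterByExpr on the 4 groups (16630 genes), to scale by TMM and to fit 1 mean per group to all 16 mice with a robust quasi-likelihood dispersion, which leaves 12 residual degrees of freedom. Genotypes were compared on each diet, diets within each genotype, and the interaction was tested. Each p was adjusted by Benjamini-Hochberg over the 16630 genes and called under 0.05, and each SE is the log2 fold change divided by the root of F. Levels per length divide CPM by the exon bases of GENCODE vM21, and promoter windows reach from 250 bases before to 50 after each RefSeq start on GRCm38.p6, which is the mm10 assembly.

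All 39 members are named. The value of every mouse is given for those called with a log2 fold change of at least 1 in size in any comparison, or called in the interaction. Of the 90 other redox genes, those named are the 3 with the largest called change in each direction, at a mean of at least 5 CPM and with groups that did not overlap, for the genotypes under LID and the diets in WT glands. The members and all lists (roles, other redox genes, cell type markers) were chosen with earlier results of these data known.

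The labels do not say if mice with the same replicate number belong together, so deviations from group means were correlated over 12871 genes. For equal numbers r ran from 0.231 to 0.628 between the *Glis3*-Pax8Cre groups, and in the other comparisons from -0.47 to 0.225. No block was used, and it was tried as an alternative.

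Alternatives were DESeq2 1.42.0, RLE factors, library size alone, no filter, at least 10 counts in every mouse, a fit of only the 8 mice compared, the replicate block, an adjusted p under 0.01 with a fold over 2, and each mouse left out in turn. The block in the 8 *Glis3*-Pax8Cre mice, and both libraries that stand apart left out, were added after the data had been seen. The calling was tested on simulated counts.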

Additional observations from a re-analysis of the deposited data

Results flagged for a closer look

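In 6 of the 156 groups of 4 mice checked (39 members in 4 groups), 1 mouse lay far from the other 3 by Dixon's criterion, and chance alone marks some groups at that rate. *Sod1* was 217 CPM in replicate 4 of *Glis3*-Pax8Cre(ND), where the others had 324 to 343 CPM. *Prdx5* was 298 CPM in replicate 2 of *Glis3*-Pax8Cre(LID) against 242 to 244 CPM. *Prdx6* was 159 CPM in replicate 4 of WT(ND) against 119 to 125 CPM, and 85.7 CPM in replicate 1 of WT(LID) against 80.9 to 81.3 CPM. *Gss* was 12.6 CPM in replicate 4 of *Glis3*-Pax8Cre(LID) against 13.6 to 13.7 CPM, and *Gsto1* was 24.2 CPM in replicate 1 of *Glis3*-Pax8Cre(LID) against 6.77 to 8.74 CPM. No explanation of these values was tested.

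The response to LID differed between genotypes, by the interaction in edgeR, for 8 members. On the log2 scale it was -2.08 for *Sod3*, -1.13 for *Srxn1*, -0.79 for *Ncf1* and -0.75 for *Hmox1*, and 1.19 for *Gpx3*, 0.79 for *Gstm1*, 0.54 for *Txnrd3* and 0.54 for *Prdx6*. The calls of *Gstm1*, *Txnrd3* and *Prdx6* are lost without single mice, and those of *Prdx6* and *Ncf1* when libraries are scaled by their size only.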

How the results depend on the processing

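Leaving aside the stricter threshold below, of 83 called differences of single members 56 were called under every alternative, 27 lost their call under some, and 0 of these changed sign. DESeq2 called every member that edgeR called, and RLE factors gave the counts of TMM. With library size alone 15 members were higher and 8 lower without GLIS3 under LID, 13 higher and 11 lower for LID in WT, 10 higher in *Glis3*-Pax8Cre, and 3 on each side of the interaction. In only the 8 mice of the comparison, 4 were lower without GLIS3 on ND. The block in the 8 *Glis3*-Pax8Cre mice left 2 lower under LID, and without both libraries that stand apart 2 had a higher interaction. The cause was not tested.

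An adjusted p under 0.01 with a fold over 2 is stricter by construction. It left 0 members higher and 5 lower for the genotypes under LID, 0 and 2 on ND, 5 and 0 for LID in WT, 3 and 0 in *Glis3*-Pax8Cre, and 0 and 2 in the interaction. Where 0 were left, edgeR had 9 higher, 7 higher, 11 lower, 4 lower and 8 higher at an unadjusted p under 0.05, and DESeq2 9, 7, 8, 4 and 5 at an adjusted p under 0.05.

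With 1 mouse left out, members higher under LID without GLIS3 ranged from 5 to 9, lower ones on ND from 6 to 11, those lower under LID in *Glis3*-Pax8Cre from 2 to 4, and those with a higher interaction from 1 to 5. The lowest count of any member in any mouse was 90.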
